A study of Rattus norvegicus with 9 samples.

Results

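Calcium-activated potassium channels of the artery wall were followed through 6 genes chosen by name: Kcnma1, Kcnmb1, Kcnmb2 and Kcnmb4 for the BK channel, Kcnn3 for the SK3 channel and Kcnn4 for the IK channel. All 6 symbols were found, each on 1 row of the 30452 in every count table. The arteries came from adult rat offspring aged 3 to 5 months, dissected under the microscope and sequenced as poly(A) RNA. Mesenteric artery of offspring whose dams drank 20% sucrose water in pregnancy (high sucrose, 3 libraries), pulmonary artery of control offspring (3 libraries) and mesenteric artery of control offspring (3 libraries) were compared. Control dams drank ordinary water, and dams of both groups ate standard diet. The sucrose was given to the dams and not to the offspring. The labels used here state neither strain nor sex. They also do not state from how many animals or litters each group was drawn, and p-values therefore reflect only the scatter among libraries, part of which may be technical. Both comparisons use the same 3 mesenteric control libraries.

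BK channels open when the membrane depolarizes and when calcium rises beside them. In arterial smooth muscle they are opened by calcium sparks, brief releases through ryanodine receptors, and the potassium that leaves pulls the membrane back from the voltage at which calcium channels open, which limits constriction. The pore is made of alpha subunits from Kcnma1, and beta subunits set its calcium sensitivity and kinetics, with beta-1 from Kcnmb1 the one of smooth muscle. SK3 and IK channels have no voltage sensor of that kind and sense calcium through bound calmodulin. In arteries they are best known from the endothelium, where their opening starts the hyperpolarization that spreads to the muscle, and IK is also found in lymphocytes, macrophages, red cells and epithelia.

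Total counts ran from 10388231 to 15420546 per library, and the mitochondrial share of counts was 13.8% to 20.0% in high-sucrose mesenteric, 13.9% to 27.1% in pulmonary and 12.8% to 16.7% in mesenteric control libraries, highest in pulmonary replicate 4. Levels are counts scaled to library size (CPM), on totals adjusted by TMM, a normalization that trims genes with extreme ratios between libraries. All 9 contractile smooth muscle markers and all 7 endothelial markers had counts in every library. Pulmonary replicate 4 stood apart, with the lowest level of the 9 for 9 of 9 contractile markers and the highest for 6 of 6 lymphocyte and 5 of 5 lung epithelium markers. In pulmonary replicate 2 the level of 6 of 6 cardiac muscle markers was above that of the other libraries, at a summed 20378 CPM. Next came pulmonary replicate 4 with a sum of 1714 CPM, to which Myh6 gave 475, Tnni3 225 and Tnnt2 213 CPM. The sum of 1020 CPM for pulmonary replicate 1 was nearly all from the marker Actc1 (1014 CPM). Its Myh6, Tnni3 and Tnnt2 levels were only 2.63, 0.329 and 1.48 CPM. Mesenteric control replicate 2 had the lowest summed contractile level of the mesenteric libraries, 11865 CPM, where the other 5 ran from 19107 to 44467 CPM.

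None of the channel genes passed the test in either comparison. In the high-sucrose mesenteric arteries 0 of the 4 tested genes passed, where 0% of 13995 tested genes did, and in the pulmonary arteries 0 of the 5 tested genes passed, where 0.014% of 14315 did. The test was edgeR's quasi-likelihood test with Benjamini-Hochberg adjustment over all genes, with a threshold of 0.05 on the adjusted p. At an unadjusted p under 0.05 there were 0 of the 4 genes in the first comparison, against a background of 1.99%, and 1 of the 5 in the second, Kcnn3, against 8.56%. Groups did not overlap for 0 of the 4 genes in the sucrose comparison, where they did not for 6.05% of tested genes (2.82% higher and 3.23% lower). Between the arteries this was 1 of the 5, Kcnn3, against 14.1% (6.78% higher and 7.33% lower). DESeq2 and limma-voom also called 0 of the channel genes in each comparison.

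**Figure D1:**
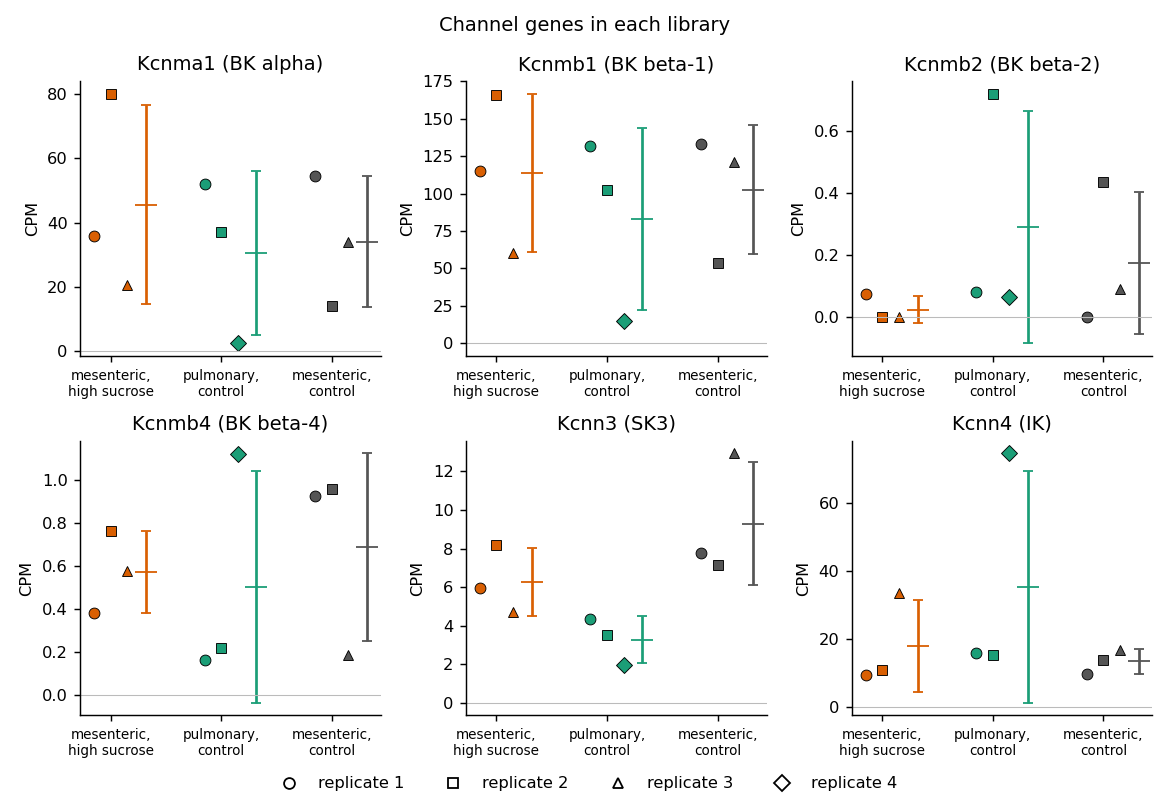
Level of each channel gene in CPM (vertical axis, linear) in every library, with mesenteric high-sucrose, pulmonary control and mesenteric control arteries from left to right. Symbols are replicates, and the bar beside them is the mean with its SD (n = 3). Kcnma1 and Kcnmb1 were lowest in pulmonary replicate 4 (2.51 and 14.7 CPM), where Kcnn4 was highest (74.7 CPM), and the 3 pulmonary values of Kcnn3 lay below the 3 mesenteric control values.

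The BK pore gene Kcnma1 was at 35.9, 80.1 and 20.8 CPM in high-sucrose mesenteric replicates 1, 2 and 3. Its pulmonary levels were 52.1, 37.3 and 2.51 CPM in replicates 1, 2 and 4, against 54.5, 14.0 and 33.9 CPM in mesenteric control replicates 1, 2 and 3. The groups overlapped in both comparisons, and the highest of the 9 libraries, high-sucrose replicate 2, was 31.9 times the lowest, pulmonary replicate 4. The SD of log2 CPM of Kcnma1 was 0.97 in the high-sucrose, 2.26 in the pulmonary and 0.98 in the mesenteric control libraries. Over all tested genes the median SD was 0.30, 0.51 and 0.31 in the same groups, so this gene varied more between libraries than most.

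The gene of the smooth muscle beta subunit, Kcnmb1, was at 115, 166 and 60.1 CPM in high-sucrose mesenteric replicates 1, 2 and 3. Its pulmonary levels were 132, 102 and 14.7 CPM in replicates 1, 2 and 4, against 133, 53.6 and 121 CPM in mesenteric control replicates 1, 2 and 3. The same libraries were the highest and the lowest as for Kcnma1, and the highest was 11.3 times the lowest. Group means of Kcnmb1 were 114 ± 53.0, 82.8 ± 60.8 and 103 ± 42.9 CPM in high-sucrose mesenteric, pulmonary and mesenteric control arteries (SD, n = 3 each). Those of Kcnma1 stood in the order high sucrose 45.6 ± 30.8, pulmonary 30.6 ± 25.4 and mesenteric control 34.2 ± 20.3 CPM, and for both genes no group mean lay outside the spread of its neighbours.

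In high-sucrose against control mesenteric artery, the log2 fold change of Kcnma1 was 0.42 ± 0.61 (SE), with a 95% interval of −1.01 to 1.85 and an adjusted p of 1.00 by edgeR's quasi-likelihood test. For Kcnmb1 it was 0.15 ± 0.45, with an interval of −0.92 to 1.22 and the same adjusted p. The intervals include a doubling of Kcnmb1 and of Kcnma1 as well as no difference, so these 6 libraries do not show that the groups were alike. The sign rested on single libraries: without high-sucrose replicate 2 the values were −0.26 for Kcnma1 and −0.22 for Kcnmb1, and without mesenteric control replicate 2 that of Kcnmb1 was −0.16.

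In pulmonary against mesenteric control artery, the log2 fold change of Kcnma1 was −0.17 ± 0.97 (SE), with an interval of −2.50 to 2.16 and an adjusted p of 0.964 by edgeR's quasi-likelihood test. That of Kcnmb1 was −0.32 ± 0.76, with an interval of −2.13 to 1.49 and an adjusted p of 0.912. Without pulmonary replicate 4 the values were 0.38 and 0.18, and with pulmonary replicate 1 alone on the pulmonary side 0.58 and 0.34, so the direction turned for both genes. Without mesenteric control replicate 1 that of Kcnma1 was 0.34.

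**Figure D2:**
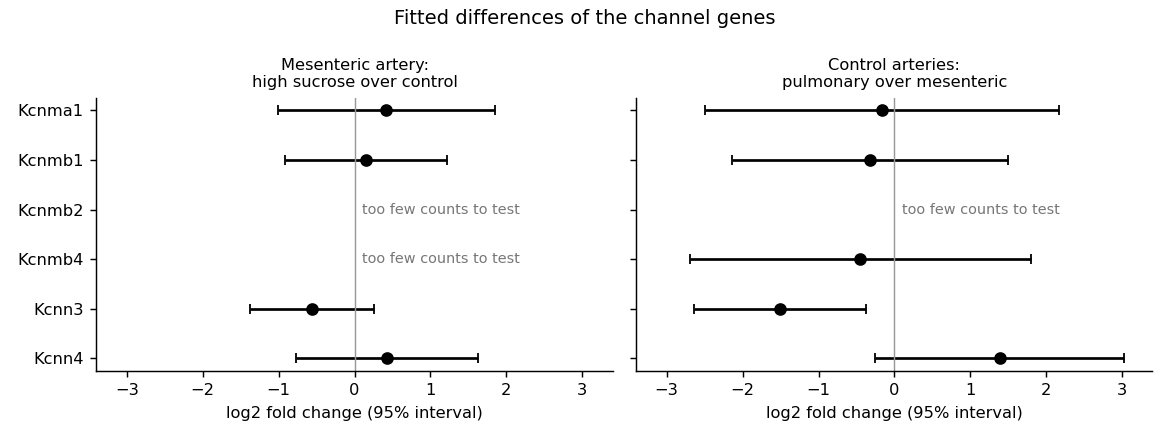
Log2 fold change of each tested channel gene with its 95% interval from edgeR (horizontal axis), for high-sucrose over control mesenteric artery (left) and pulmonary over mesenteric control artery (right), 3 libraries per group. All intervals include 0 except that of Kcnn3 between pulmonary and mesenteric artery (−2.64 to −0.38), which is not adjusted for the number of genes.

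The pair of libraries lowest in the smooth muscle gene Myh11 was also lowest in both BK genes. Myh11, the myosin heavy chain of smooth muscle, was at 6546, 7830 and 5612 CPM in high-sucrose mesenteric replicates 1, 2 and 3, at 5308, 5890 and 1030 CPM in the pulmonary libraries, and at 14001, 2907 and 8258 CPM in mesenteric control replicates 1, 2 and 3. Its lowest library, pulmonary replicate 4, and its second lowest, mesenteric control replicate 2, were also the lowest pair for Kcnma1 and Kcnmb1. The order did not hold for all libraries. Pulmonary replicate 1, with less Myh11 than mesenteric control replicate 3, had more Kcnma1 (52.1 against 33.9 CPM) and more Kcnmb1 (132 against 121 CPM). Fewer smooth muscle cells in a piece of artery and less RNA of a gene per cell cannot be told apart in such bulk samples.

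Set beside Myh11 in the same library, the groups again overlapped. Per 100 CPM of Myh11, Kcnma1 was at 0.549, 1.02 and 0.371 CPM in high-sucrose mesenteric, at 0.981, 0.632 and 0.244 CPM in pulmonary, and at 0.389, 0.482 and 0.411 CPM in mesenteric control libraries, in order of replicate number. The difference between groups in log2 Kcnma1 minus log2 Myh11 was 0.47 for high-sucrose against control mesenteric artery (2-sided exact permutation test, p = 0.4), and ran from 0.082 without high-sucrose replicate 2 to 0.80 without high-sucrose replicate 3. For pulmonary against mesenteric control artery it was 0.39 (p = 0.6, same exact test). For Kcnmb1 the corresponding differences were 0.21 (p = 0.6) and 0.43 (p = 0.4, exact permutation tests). With 3 libraries against 3 the smallest p this test can give is 0.1. Between pulmonary and mesenteric artery the sign depended on the muscle gene chosen, since with the smooth muscle actin gene Acta2 in place of Myh11 the differences were −0.69 for Kcnma1 and −0.65 for Kcnmb1. That of Kcnma1 over Myh11 was −0.0044 without pulmonary replicate 1, and that of Kcnmb1 over Myh11 in the sucrose comparison was −0.053 without mesenteric control replicate 1.

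**Figure D3:**
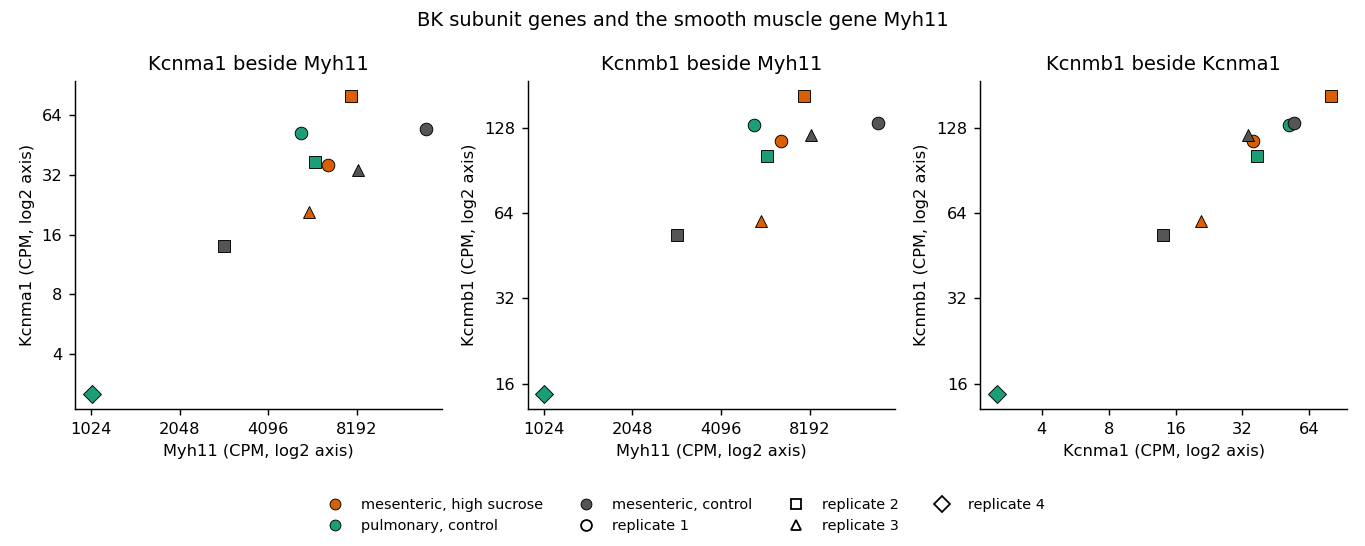
Kcnma1 against Myh11 (left), Kcnmb1 against Myh11 (middle) and Kcnmb1 against Kcnma1 (right), in CPM on log2 axes, 1 point per library, with colours for groups and symbols for replicates. Pulmonary replicate 4 (Myh11 1030 CPM) lies at the lower left of each panel, with mesenteric control replicate 2 (Myh11 2907 CPM) next among the values of Myh11.

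The balance of beta-1 to alpha transcripts also varied among libraries. Kcnmb1 was at 320, 207 and 289 CPM per 100 CPM of Kcnma1 in the high-sucrose mesenteric libraries, at 253, 274 and 584 in the pulmonary libraries and at 244, 383 and 356 in the mesenteric control libraries, in order of replicate number. These values are not corrected for transcript length and compare libraries, not the amounts of the 2 subunits. The highest value was in pulmonary replicate 4, with 38 counts of Kcnma1, and the lowest in high-sucrose replicate 2. These are the libraries with the least and the most Kcnma1. Kcnma1 is the divisor, so this opposite order is partly built into the ratio. The log2 difference Kcnmb1 minus Kcnma1 was 1.41 ± 0.32 in high-sucrose and 1.67 ± 0.34 in control mesenteric artery (SD, n = 3 each; 2-sided exact permutation test, p = 0.4). The difference, −0.26, ran from −0.45 without mesenteric control replicate 1 to −0.079 without high-sucrose replicate 2. It was 1.70 ± 0.55 in pulmonary and 1.67 ± 0.34 in mesenteric control artery (p = 0.9, same exact test). The difference between pulmonary and mesenteric control artery, 0.036, was −0.28 without pulmonary replicate 4 and −0.16 without mesenteric control replicate 1.

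The start regions of Kcnma1 and Kcnmb1 have unlike base composition. A promoter entry, 250 bases before to 50 bases after the gene start, was found for 5 of the 6 genes in the RefSeq table of build GRCr8, a build other than the rn7 of the counts, so no count is placed on it. The Kcnma1 window (chr15:351675-351974, plus strand) held 38 CpG dinucleotides and 78.3% G and C, and the Kcnmb1 window (chr10:19061849-19062148, plus strand) 6 CpG dinucleotides and 51.7%. The median of 33469 rat promoters was 7 CpG dinucleotides and 51.7%. Both are shown 5′ to 3′, with capitals marking each CpG dinucleotide.
Kcnma1 promoter: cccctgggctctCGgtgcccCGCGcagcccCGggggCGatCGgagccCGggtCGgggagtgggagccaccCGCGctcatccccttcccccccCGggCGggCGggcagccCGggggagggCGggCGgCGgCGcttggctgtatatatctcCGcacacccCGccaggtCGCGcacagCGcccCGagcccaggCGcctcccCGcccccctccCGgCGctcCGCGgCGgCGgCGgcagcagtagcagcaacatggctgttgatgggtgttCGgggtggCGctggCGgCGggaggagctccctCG
Kcnmb1 promoter: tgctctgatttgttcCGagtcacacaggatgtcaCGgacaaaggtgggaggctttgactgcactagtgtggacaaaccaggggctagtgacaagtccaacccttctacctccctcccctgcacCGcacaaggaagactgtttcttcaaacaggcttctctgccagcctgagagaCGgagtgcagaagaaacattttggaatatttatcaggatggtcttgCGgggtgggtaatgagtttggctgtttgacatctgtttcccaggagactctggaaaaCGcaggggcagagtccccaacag
The letters GGGCGG, on either strand, were found at 5 positions of the Kcnma1 window, among them overlapping pairs, and at 0 of the Kcnmb1 window, where 33.1% of all promoters hold at least 1. The CArG box, the motif of serum response factor in many smooth muscle genes, was found on either strand in neither window, and 1.64% of all promoters hold one. Neither held TATAAA (14.2% of promoters) or TGANTCA (7.33%). These are matches of letters within 300 bases, and the start used in arteries was not measured.

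The other beta subunit genes were near the limit of detection. Kcnmb2, whose protein inactivates BK channels and is known from chromaffin cells and neurons, had 1, 0 and 0 counts in the high-sucrose mesenteric, 1, 10 and 1 counts in the pulmonary and 0, 5 and 1 counts in the mesenteric control libraries, in order of replicate number. The 10 counts were in pulmonary replicate 2, the library highest in cardiac markers, whose part in this was not tested. Summed over libraries, the ratio of high-sucrose to control mesenteric artery was 0.183 (95% counting interval 0.0040 to 1.51). That of pulmonary to mesenteric control artery was 1.82 (0.632 to 5.91). The intervals are exact conditional ones, cover counting error only since reads carry no molecular identifiers, and both include 1, so no difference was detectable at this depth. Kcnmb2 had too few counts to enter either fit.

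Kcnmb4, the beta subunit best known from brain, had 5, 8 and 6 counts in the high-sucrose mesenteric, 2, 3 and 17 counts in the pulmonary and 14, 11 and 2 counts in the mesenteric control libraries. All groups overlapped, and all levels were at or below 1.12 CPM. The summed ratio was 0.774 (counting interval 0.407 to 1.45) for high-sucrose over control mesenteric artery and 0.741 (0.402 to 1.35) for pulmonary over mesenteric control artery. Kcnmb4 entered the second fit alone, with a log2 fold change of −0.45 ± 0.94 (SE) and an adjusted p of 0.900 by edgeR's quasi-likelihood test. With 1 library left out the value ran from −1.82, without pulmonary replicate 4, to −0.071, without pulmonary replicate 1, so its size rested on single libraries.

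Kcnn3, the gene of SK3, was lower in the 3 pulmonary libraries than in the 3 mesenteric control libraries without passing the test. It was at 5.93, 8.18 and 4.72 CPM in high-sucrose mesenteric replicates 1, 2 and 3. Its pulmonary levels were 4.35, 3.53 and 1.98 CPM in replicates 1, 2 and 4, against 7.79, 7.13 and 12.9 CPM in mesenteric control replicates 1, 2 and 3. The pulmonary and mesenteric control values did not overlap, which in the same direction held for 7.33% of all tested genes. The 3 high-sucrose values lay above the pulmonary ones, and the highest of them lay within the mesenteric controls.

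Group means of Kcnn3 were 6.28 ± 1.76 CPM in high-sucrose mesenteric, 3.29 ± 1.20 CPM in pulmonary and 9.29 ± 3.18 CPM in mesenteric control artery (SD, n = 3 each). The log2 fold change of pulmonary over mesenteric control artery was −1.51 ± 0.47 (SE), with an interval of −2.64 to −0.38, an unadjusted p of 0.0165 and an adjusted p of 0.484 by edgeR's quasi-likelihood test. With 1 library left out at a time it ran from −1.78 to −1.20, and over the other settings from −1.52 to −0.94. It was −1.11 with only pulmonary replicate 1 on the pulmonary side, and over all settings tried the adjusted p ran from 0.0633 to 0.965. For high-sucrose over control mesenteric artery it was −0.56 ± 0.35 with an interval of −1.38 to 0.25 (adjusted p = 1.00, same test), and −0.25 without mesenteric control replicate 3, the library with the most Kcnn3.

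The endothelial gene Pecam1, an adhesion protein of endothelial cell contacts, was low in the same pulmonary libraries. Its pulmonary levels were 400, 459 and 208 CPM in replicates 1, 2 and 4, against 544, 798 and 1053 CPM in mesenteric control replicates 1, 2 and 3. Of the 7 endothelial markers, 6 had a negative log2 fold change in pulmonary artery (median −0.65, where the median of all tested genes was 0.064), 3 of them without overlap, as for 7.33% of all tested genes in that direction, and 0 passed. Their summed level was 1571, 1992 and 691 CPM in the pulmonary and 1349, 3113 and 2339 CPM in the mesenteric control libraries, none of them at 0. Negative values were not particular to endothelium. They were found for 8 of 9 contractile markers (median −0.73) and 6 of 6 fibroblast markers (median −0.47). All tested cardiac (4), lymphocyte (5) and macrophage (5) markers were positive. Per 100 CPM of Pecam1, Kcnn3 was at 1.09, 0.769 and 0.953 CPM in pulmonary and at 1.43, 0.894 and 1.23 CPM in mesenteric control libraries, and these values overlapped. The difference in log2 Kcnn3 minus log2 Pecam1, a measure chosen after the values were seen, was −0.18 (2-sided exact permutation test, p = 0.4). With the other 6 endothelial markers in place of Pecam1 it ran from −2.04 (Emcn) to 0.38 (Esam), so its size and sign depended on the marker, and the groups overlapped for 6 of the 7 markers. The part of endothelial RNA in the level of Kcnn3 was not tested otherwise.

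Kcnn4, the gene of IK, had its highest levels in single libraries of different groups. It was at 9.59, 11.0 and 33.7 CPM in high-sucrose mesenteric replicates 1, 2 and 3. Its pulmonary levels were 15.9, 15.3 and 74.7 CPM in replicates 1, 2 and 4, against 9.64, 14.0 and 16.7 CPM in mesenteric control replicates 1, 2 and 3. High-sucrose replicate 3 and pulmonary replicate 4 lay above all other libraries, and the rest of each group overlapped the mesenteric controls. Group means were 18.1 ± 13.5 CPM in high-sucrose mesenteric, 35.3 ± 34.1 CPM in pulmonary and 13.5 ± 3.58 CPM in mesenteric control artery (SD, n = 3 each), and neighbours in that order did not differ beyond their spread.

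The log2 fold change of Kcnn4 was 0.43 ± 0.51 (SE) for high-sucrose over control mesenteric artery, with an interval of −0.77 to 1.63 and an adjusted p of 1.00 by edgeR's quasi-likelihood test. It was −0.38 without high-sucrose replicate 3. For pulmonary over mesenteric control artery it was 1.39 ± 0.68, with an interval of −0.25 to 3.02 and an adjusted p of 0.609 by the same test. Without pulmonary replicate 4 it was 0.21, and with pulmonary replicate 1 alone 0.23.

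Some markers of other cells were high in the libraries where Kcnn4 was high. Ptprc, the leukocyte surface phosphatase CD45, was at 8.60, 16.5 and 27.7 CPM in high-sucrose mesenteric, 18.4, 12.2 and 496 CPM in pulmonary and 14.0, 26.4 and 33.7 CPM in mesenteric control libraries, in order of replicate number. The summed lymphocyte markers were at 1355 CPM in pulmonary replicate 4 and between 11.6 and 40.9 CPM in the other 8 libraries, and the summed lung epithelium markers at 650 CPM and between 0 and 60.2 CPM. The summed macrophage markers were at 1565 CPM in pulmonary replicate 4 and between 175 and 425 CPM in the other 8 libraries. Of these 5 markers 3 were highest in pulmonary replicate 4, while Mrc1 was lowest there (13.7 CPM). For 6 of 7 endothelial markers the highest library was high-sucrose replicate 3, at a summed 3780 CPM, and its lymphocyte sum of 32.5 CPM lay within the mesenteric controls (19.5 to 40.9 CPM). The part of these cells in the level of Kcnn4 was not tested.

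Set beside Pecam1, a measure chosen after the values were seen, Kcnn4 was at 1.45, 1.62 and 3.49 CPM per 100 CPM of Pecam1 in high-sucrose mesenteric libraries. It was at 3.99, 3.34 and 35.9 CPM in pulmonary libraries and at 1.77, 1.75 and 1.59 CPM in mesenteric control libraries. Beside Pecam1 all 3 pulmonary libraries lay above the 3 mesenteric controls, but this depended on the marker: it held for 4 of the 7 endothelial markers (Pecam1, Tie1, Egfl7 and Esam) and the groups overlapped for Cdh5, Vwf and Emcn, both with and without pulmonary replicate 4. Kcnn4 itself overlapped between the arteries. Pecam1, Egfl7 and Esam were lower in pulmonary artery without overlap (log2 fold changes −1.18, −1.83 and −1.78). The ratios therefore also carry the lower markers and do not show that Kcnn4 was raised. The log2 difference of Kcnn4 and Pecam1 was 2.18 between pulmonary and mesenteric control artery (2-sided exact permutation test, p = 0.1, the smallest this test can give) and 1.09 without pulmonary replicate 4. Over the 7 markers it ran from 0.32 to 2.74, with p from 0.1 to 0.8 by the same exact test. For high-sucrose against control mesenteric artery it was 0.24 (p = 0.9, same exact test), and −0.14 without high-sucrose replicate 3. Over the 7 markers that difference ran from −0.40 to 0.24.

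**Figure D4:**
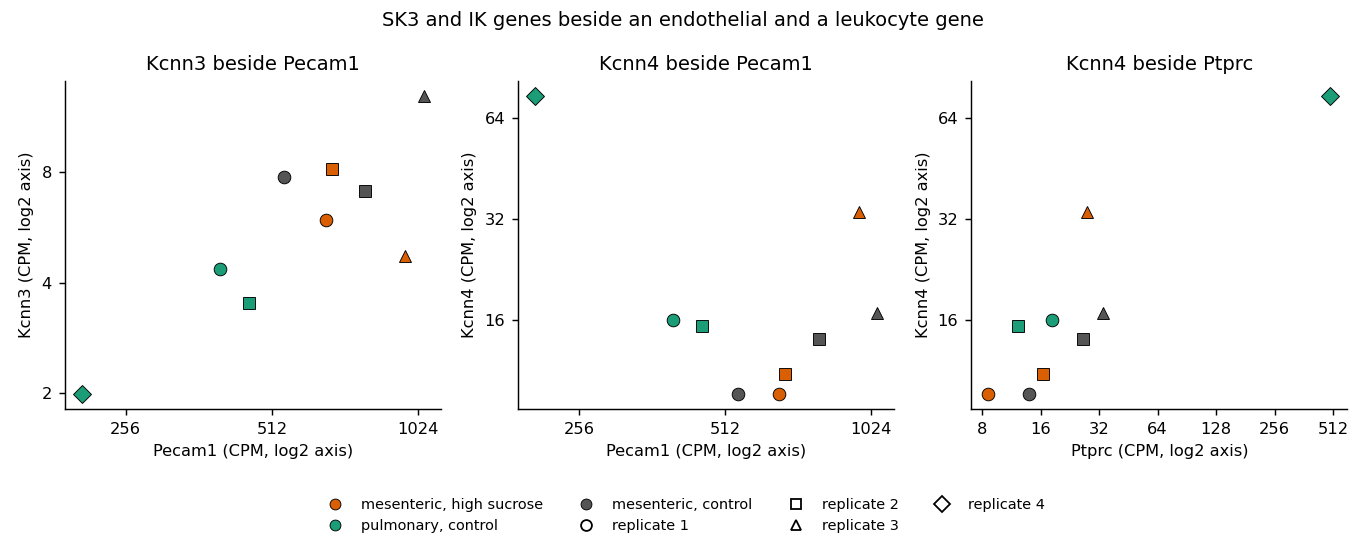
Kcnn3 against Pecam1 (left), Kcnn4 against Pecam1 (middle) and Kcnn4 against Ptprc (right), in CPM on log2 axes, 1 point per library, with colours for groups and symbols for replicates. Pulmonary replicate 4 is the lowest library for Kcnn3 (1.98 CPM) and Pecam1 (208 CPM) and the highest for Kcnn4 (74.7 CPM) and Ptprc (496 CPM).

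Genes with a profile most like each channel gene were sought among 12848 genes with a symbol and a mean of at least 1 CPM. Likeness was the root mean square difference of log2 CPM, centred on each gene's mean, over the 9 libraries, which share depth, tissue pieces and cell makeup within a library. For Kcnma1 the nearest were Ppp1r12b, a targeting subunit of myosin phosphatase (0.313), Cped1 (0.329) and Kank1, an adaptor of focal adhesions (0.348), and Kcnmb1 ranked 4 (0.364). For Kcnmb1 they were Rasl12 (0.183), Prodh1 (0.198) and Flna, the actin cross-linker filamin A (0.211), while Kcnma1 ranked 42. Flna was lowest in pulmonary replicate 4, at 1161 CPM, and highest in high-sucrose replicate 2, at 8207 CPM. These are the end libraries of both BK genes, a likeness that follows from choosing Flna by profile.

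Kcnn3 and Kcnn4 were added to that search after their values were seen. The nearest profiles of Kcnn3 were Myl6, a myosin light chain (0.279), RGD1559821 (0.282) and Jam3, a junction protein (0.288). Those of Kcnn4 were Irf5, an interferon regulatory factor of immune cells (0.184), Il10ra, a receptor chain for interleukin 10 (0.224), and Cmtm7 (0.278). Irf5 was at 3.58, 3.81 and 9.82 CPM in high-sucrose mesenteric, 5.26, 4.90 and 29.1 CPM in pulmonary and 3.10, 5.74 and 7.67 CPM in mesenteric control libraries. Its highest pair of libraries was that of Kcnn4, which follows from choosing it by profile and is no separate result.

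Genes that work with these channels did not pass either. Of 69 genes in 5 lists, 64 were found by symbol, and 0 passed in either comparison. At an unadjusted p under 0.05 there were 0 of 57 tested rows in the sucrose comparison and 9 of 58 between the arteries, against the backgrounds of 1.99% and 8.56%. The list of relatives held the other KCNN and Slo channels and the gamma subunits of BK, of which 4 of 10 had enough counts to test in each comparison. Its median log2 fold change was −0.33 for high-sucrose over control mesenteric artery, with 2 of 4 higher, where the median of all tested genes was 0.0024. For pulmonary over mesenteric control artery it was 0.022, also with 2 of 4 higher, against 0.064 for all tested genes. In the sucrose comparison 1 of the 4 was lower without overlap, as for 3.23% of all tested genes in that direction. That gene was Kcnn1 (log2 fold change −0.70), at a mean of 0.98 CPM, under the 1 CPM used for naming genes. Lrrc38, a BK gamma subunit, had log2 fold changes of −1.21 and −0.40 in the 2 comparisons, at mean levels of 1.37 and 1.69 CPM. Lrrc55, another gamma subunit, had 0.23 in the first, and Kcnt1, a sodium-activated channel of the Slo family, 0.80 in the second.

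Calcium sources were the ryanodine and inositol trisphosphate receptors, calcium channels and store proteins. Of 17 tested in the sucrose comparison, 11 were higher and 6 lower (median 0.24), with Itpr3, an inositol trisphosphate receptor, at 0.35 ± 0.38 (SE) and Trpv4, a calcium-permeable channel of endothelium and muscle, at 0.64 ± 0.71. Of 18 tested between pulmonary and mesenteric artery, 10 were higher and 8 lower (median 0.029). Cacna1h, a T-type calcium channel linked to calcium sparks in mouse arteries, was at 21.2, 15.7 and 10.1 CPM in pulmonary and at 103, 12.6 and 150 CPM in mesenteric control libraries. Its log2 fold change was −2.50 ± 0.83, with an adjusted p of 0.510 by edgeR's quasi-likelihood test, and mesenteric control replicate 2 lay within the pulmonary values. Atp2a2, the calcium pump of the store, was at 361, 4912 and 321 CPM in pulmonary and 441, 213 and 474 CPM in mesenteric control libraries. The library at 4912 CPM was pulmonary replicate 2, the highest in cardiac markers, and so was that with the most Ryr2, the cardiac ryanodine receptor, at 492 CPM against 2.44 to 96.6 CPM in the other 8 libraries. The part of cardiac RNA in these levels was not tested.

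Calmodulin, kinases and phosphatases that act on the channels had 9 of 15 rows higher in each comparison, with medians of 0.044 and 0.14. Calm2, a calmodulin gene, had a log2 fold change of −0.24 ± 0.31 (SE) in the sucrose comparison. Src, a tyrosine kinase, was at 99.2, 98.4 and 58.9 CPM in pulmonary and at 53.1, 32.8 and 21.1 CPM in mesenteric control libraries. These values did not overlap, as for 6.78% of all tested genes in that direction. The log2 fold change of Src was 1.25 ± 0.40 (SE), with an adjusted p of 0.494 by edgeR's quasi-likelihood test. Prkacb, a catalytic subunit of protein kinase A, was at 168, 142 and 114 CPM in pulmonary and 249, 192 and 253 CPM in mesenteric control libraries (−0.72, adjusted p = 0.552, same test). Its groups did not overlap either, as for 7.33% of all tested genes in that direction.

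Genes of transcription, trafficking and turnover had 5 of 9 higher in the sucrose comparison (median 0.027) and 3 of 9 higher in pulmonary artery (median −0.033). Nfatc3, a calcium-regulated transcription factor that in mouse arteries lowers Kcnmb1, was at 49.9, 45.4 and 58.0 CPM in high-sucrose and 41.0, 37.9 and 44.6 CPM in control mesenteric libraries, without overlap, as for 2.82% of all tested genes in that direction. Its log2 fold change was 0.31 ± 0.16 (SE, adjusted p = 1.00 by edgeR's quasi-likelihood test), and that of Myocd, the smooth muscle coactivator myocardin, was 0.15. Rab11a, a GTPase of recycling endosomes, had −0.96 in pulmonary artery without overlap, as for 7.33% of all tested genes in that direction. Crbn, the ubiquitin ligase adaptor cereblon, had −0.49 there.

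Partners of endothelium-dependent hyperpolarization had 8 of 12 higher in the sucrose comparison (median 0.41). Gja1, the gap junction protein connexin 43, was at 0.64 ± 0.37 (SE) and Atp1b1, the beta-1 subunit of the sodium pump, at 0.54 ± 0.26, and the groups overlapped for both. Gja1 was at 114, 55.1 and 45.5 CPM in high-sucrose and 39.8, 57.3 and 40.7 CPM in control mesenteric libraries. In pulmonary artery 6 of 12 were higher (median 0.046). Atp1b1 was at 37.5, 223 and 125 CPM in pulmonary and at 17.8, 14.3 and 21.3 CPM in mesenteric control libraries, with its highest level in pulmonary replicate 2. Its log2 fold change there was 2.84 ± 0.63 (SE), with an adjusted p of 0.345 by edgeR's quasi-likelihood test. Cyp2j4, an epoxygenase, was at 13.6, 9.73 and 8.06 CPM in pulmonary and 18.6, 38.0 and 35.8 CPM in mesenteric control libraries (−1.57, adjusted p = 0.374, same test). Neither Atp1b1 nor Cyp2j4 overlapped between the arteries, as for 6.78% of all tested genes on the higher side and 7.33% on the lower.

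**Figure D5:**
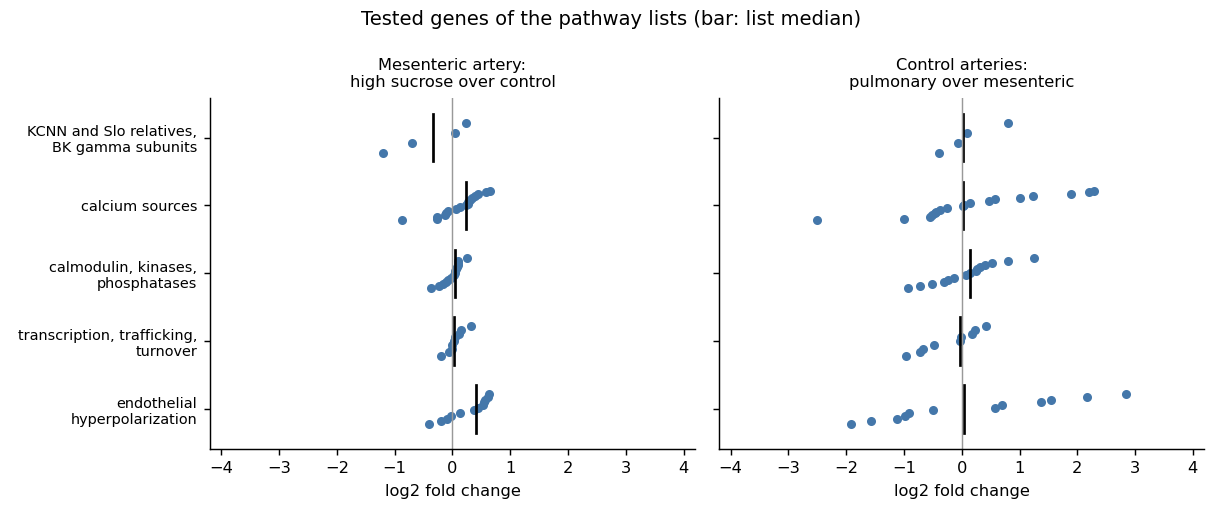
Log2 fold change (horizontal axis) of each tested gene of the 5 pathway lists, for high-sucrose over control mesenteric artery (left) and pulmonary over mesenteric control artery (right), with a black bar at each list's median. List medians ran from −0.33 to 0.41 on the left and from −0.033 to 0.14 on the right, and 0 of the points passed the test.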

How the data were processed

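RNA was measured in 9 artery libraries, 3 per group. The authors deposited whole-number counts per gene with no normalization, and per the submitters' processing notes the genome build was rn7. Aligner, counter, annotation and strand setting: not given in the sources used here, so reads shared with gene copies or antisense transcripts were not separable. Per the labels' protocols, poly(A) RNA was bead-purified, fragmented and copied with random primers.

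Each comparison was fitted on its 6 libraries with edgeR 4.0.16 in R 4.3.3 (TMM factors, filterByExpr, robust quasi-likelihood F test, Benjamini-Hochberg adjustment over all genes tested). Only the 2 groups compared entered a fit, and pulmonary control was not tested against mesenteric high sucrose, where artery and treatment differ at once. Levels use TMM over all 9 libraries, and overlap of groups was judged on them. Differences between 2 genes use log2 of CPM plus 0.5 and an exact permutation test over libraries. Each standard error was taken as the log2 fold change over the root of its F value.

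Every gene of the channel list was described. From each pathway list the text names the 2 genes with the smallest p and at least 1 CPM (1 such result is not reported here), and the 3 nearest profiles were named for Kcnma1 and Kcnmb1. The members and lists were chosen with earlier results of these data known. Alternatives were other size factors, DESeq2 1.42.0, limma-voom 3.58.1, the newer edgeR method, other filters, mitochondrial genes left out, a joint fit of all libraries, a block for replicate number, the contractile markers as a covariate, other pseudocounts and each library left out. The fit was checked on simulated counts with 200 changed genes. It recovered 99.5% of them in the sucrose setting and 100% in the artery setting, with 11 and 8 unchanged genes called. Every simulated gene had the same spread and the changes were large, so this does not measure power for genes as variable as Kcnma1.

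Libraries of a group differed by a chi-square per degree of freedom of 45.7 to 332, where sampling noise alone gives about 1. The listed genes Ryr3, Trpc6, Pln, Calm3 and Prkg1 were not found by symbol and were not analysed here.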

Additional observations from a re-analysis of the deposited data

How the results depend on the processing

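The count of channel genes that passed was 0 under all 18 alternatives of the sucrose comparison and the 19 of the artery comparison. One of the 19 keeps pulmonary replicate 1 as the lone pulmonary library: its spread comes from the mesenteric libraries, that library is assumed to vary like them, and its count of 0 says little. Over all genes, 0 passed in the sucrose comparison and 3 with DESeq2. In the artery comparison 2 passed, against 408 with DESeq2, 34 with limma-voom, 9 with the newer edgeR method, 38 with all 9 libraries in 1 fit, 10 with the contractile covariate and 0 with pulmonary replicate 1 alone, and 0 to 22 with 1 library left out. Replicate numbers were not taken to pair libraries, since correlations of same-numbered deviations ran from −0.26 to 0.19 and not every library correlated best with its own number. With the replicate block 6 genes passed in the artery comparison and 0 in the sucrose comparison. Between the arteries that block compares only replicates 1 and 2, the numbers both groups share.

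Between pulmonary and mesenteric artery, Kcnma1 turned to 0.065 with limma-voom, and the replicate block gave 0.65 for Kcnma1 and 0.44 for Kcnmb1. The block values rest on replicates 1 and 2 only. Pulmonary replicate 4 and mesenteric control replicate 3 share no number with the other group and add nothing to that difference. With the contractile covariate Kcnma1 and Kcnmb1 were at 0.46 and 0.19, and with pulmonary replicate 1 alone at 0.58 and 0.34. With 1 library left out, Kcnma1 ran from −0.81 to 0.38 and Kcnmb1 from −0.84 to 0.18. In the sucrose comparison the ranges were −0.26 to 0.93 for Kcnma1, −0.22 to 0.45 for Kcnmb1 and −0.38 to 0.74 for Kcnn4. The stricter filter gave no value for Kcnmb4. Kcnn3 kept its sign under every alternative in both comparisons, as did Kcnn4 and Kcnmb4 in the artery comparison.

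Kcnmb1 minus Kcnma1 between the arteries was −0.077 with a pseudocount of 2, −0.20 within shared replicate numbers (replicate block) and −0.28 to 0.22 with 1 library left out. In the sucrose comparison it ran from −0.45 to −0.079. With Acta2 for Myh11 the differences were −0.69 for Kcnma1 and −0.65 for Kcnmb1. With 1 library left out, Kcnma1 minus Myh11 between the arteries ran from −0.0044 to 0.88, Kcnmb1 minus Myh11 in the sucrose comparison from −0.053 to 0.49 and Kcnn4 minus Pecam1 there from −0.14 to 0.47. Kcnn3 minus Pecam1 between the arteries was 0.10 with a pseudocount of 2, 0.23 with Egfl7 in place of Pecam1 and 0.38 with Esam. In the sucrose comparison Kcnn4 minus Pecam1 turned to −0.043 with Tie1, −0.40 with Emcn, −0.052 with Egfl7 and −0.0076 with Esam. These markers were chosen after seeing the data. The cause of these turns was not tested. Depth limits Kcnmb2 and Kcnmb4, with at most 17 counts in a library.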
